A study of Mus musculus with 9 samples.

Results

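The haemoglobin transcripts and Alas2 were followed in 9 bulk RNA libraries of sorted mouse brain endothelial cells. They were taken as every row of the count matrix whose symbol starts with Hba- or Hbb-, plus Alas2, which gave 9 of 23420 gene rows: Hba-a1, Hba-a2, Hba-x, Hbb-b1, Hbb-b2, Hbb-bh1, Hbb-bh2, Hbb-y and Alas2. Of these 9, Hba-a1, Hba-a2, Hbb-b1, Hbb-b2, Hbb-y and Alas2 passed the filter on low counts (6 rows, among 13317 rows of the whole matrix), and Hba-x, Hbb-bh1 and Hbb-bh2 had 0 counts in every library. The cells were CD31+CD45-, that is, positive for the endothelial surface protein Pecam1 and negative for the leukocyte protein Ptprc, and came from C57BL/6 mice of 6 months that were all labelled male. Libraries of 20000 cells each were made from 3 APP/PS1xRIPK1KD, 3 APP/PS1 and 3 WT mice, with 1 mouse described in each label. APP/PS1 names a transgenic model that carries altered amyloid precursor protein and presenilin genes and deposits amyloid in the brain. RIPK1 is a kinase of tumour necrosis factor signalling. What KD stands for, which promoters drive the transgenes and whether mice shared a litter or a sorting day are not given in the sources used here.

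Haemoglobin carries oxygen in red cells as a tetramer of alpha-like and beta-like globin chains, each of which holds a haem group. In the mouse the alpha-like genes lie in a cluster on chromosome 11 and the beta-like genes in a cluster on chromosome 7, and within each cluster embryonic genes are replaced by adult ones during development. Alas2, on chromosome X, encodes the erythroid form of 5-aminolevulinate synthase, the first and rate-limiting enzyme of haem synthesis. Red cells lose their nucleus as they mature but keep globin mRNA for some time as reticulocytes.

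The libraries held between 16263792 and 52413200 expected counts. At these depths 3 counts, taken as the limit that a count of 0 allows, equalled 0.0541 to 0.189 CPM (the count scaled to the size of the library), and this limit covers counting error only. The summed level of 15 endothelial markers was 22620 to 25340 CPM in APP/PS1xRIPK1KD, 22250 to 26480 CPM in APP/PS1 and 24000 to 26740 CPM in WT, and the summed level of 14 leukocyte markers did not exceed 6.95 CPM in any library. Against the label, the female-specific RNA Xist stood at 264 to 534 CPM in replicates 1 and 2 of every genotype, where 4 Y-linked transcripts summed to at most 0.434 CPM. In replicate 3 of every genotype Xist was at most 4.77 CPM and the Y-linked sum was 150 to 185 CPM. The fold changes of the 6 tested rows within replicates 1 and 2 are therefore given beside those from all libraries.

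Hba-a1 and Hba-a2 encode the adult alpha chain from neighbouring gene copies, at chr11:32283511-32284465 and chr11:32296489-32297298 on the plus strand (GRCm38, GENCODE M21). Their coding sequences differ at 1 of 426 bases. The stretch around that base (coding bases 351 to 410) is shown because it holds the only coding difference, and the capital marks the differing base. The transcripts, of 699 and 554 bases, also differ outside the coding sequence.
Hba-a1: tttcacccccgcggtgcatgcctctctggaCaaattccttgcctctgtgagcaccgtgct
Hba-a2: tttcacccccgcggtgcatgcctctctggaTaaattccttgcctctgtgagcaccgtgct
Of all windows of 50 bases, the length of read 1, 67.5% of those in the Hba-a1 transcript occur unchanged in Hba-a2 and 86.9% of those in Hba-a2 occur in Hba-a1. The split of reads between both rows is therefore uncertain, while their sum does not depend on that split.

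Hba-a1 had 2300, 1266 and 2061 CPM in APP/PS1xRIPK1KD, 1570, 1075 and 5250 CPM in APP/PS1, and 1080, 1433 and 1320 CPM in WT. Only replicate 3 of APP/PS1 exceeded 2300 CPM, and the genotypes overlapped. Per kilobase of transcript, Hba-a1 averaged 2759 CPM over the 9 libraries and ranked 6 of 11947 genes with a known length, between the barrier claudin Cldn5, which ranked 2 at 4973 CPM per kilobase, and Pecam1, which ranked 91 at 339 CPM per kilobase. In bulk samples fewer cells of a type and less RNA per cell cannot be told apart, so the level does not say which cells carried the transcript.

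Hba-a2 had 54.3, 55.5 and 59.7 CPM in APP/PS1xRIPK1KD, 60.7, 32.5 and 167 CPM in APP/PS1, and 64.4, 80.2 and 45.6 CPM in WT. Again the third APP/PS1 library was the highest and the second APP/PS1 library the lowest. Per kilobase of transcript Hba-a2 averaged 124 CPM and ranked 382 of 11947. The ratio of Hba-a1 to Hba-a2 CPM varied between 16.8 (WT replicate 1) and 42.3 (APP/PS1xRIPK1KD replicate 1), which is wider than the ratio of alpha to beta rows described next.

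Hbb-b1 and Hbb-b2 are row names for the adult major and minor beta chains of other mouse strains, as described below. Hbb-b1 had 200.8, 154 and 192 CPM in APP/PS1xRIPK1KD, 177, 105 and 576 CPM in APP/PS1, and 121, 171 and 146 CPM in WT. Hbb-b2 had 95.3, 44.5 and 49.3 CPM in APP/PS1xRIPK1KD, 62.9, 26.0 and 154 CPM in APP/PS1, and 16.4, 34.0 and 44.4 CPM in WT. For both rows the third APP/PS1 library was the highest of the 9. The 3 APP/PS1xRIPK1KD libraries lay above the 3 WT libraries for Hbb-b2, with 44.5 and 44.4 CPM in the nearest libraries of both genotypes, and for no other tested row.

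The ratio of the summed alpha CPM to the summed Hbb-b1 and Hbb-b2 CPM stayed between 6.65 and 8.80 in all 9 libraries, a range of 1.32-fold, although the alpha sum itself ranged from 1107 to 5417 CPM. This ratio is used to describe how far the rows moved together, not as a ratio of transcript levels, because no transcript length was available for Hbb-b1 and Hbb-b2. Over the 9 libraries, the Pearson correlation of log2 CPM with Hba-a1 was 0.974 for Hbb-b1, 0.889 for Hbb-b2 and 0.794 for Hba-a2. Without APP/PS1 replicate 3 it was 0.907, 0.835 and 0.295 over the remaining 8. The points share their libraries and scaling factors, so these correlations are descriptions.

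**Figure D1:**
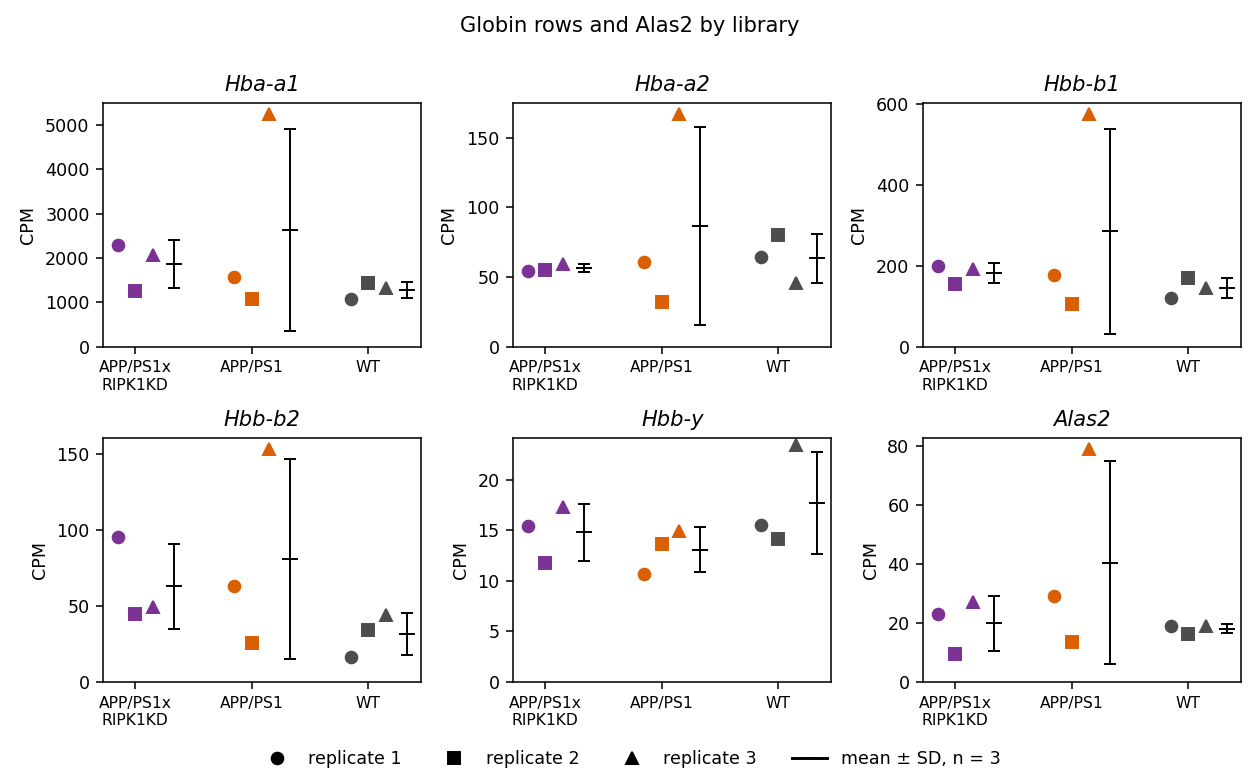
CPM (counts scaled to library size, linear axis from 0) of the 6 tested rows in each library, by genotype, with the mean ± SD of 3 libraries as black bars. Replicate 3 of APP/PS1 is the highest library for Hba-a1 (5250 CPM), Hba-a2, Hbb-b1, Hbb-b2 and Alas2, but not for Hbb-y.

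A further beta-globin row fell outside the choice by symbol. Among 9720 tested genes of at least 5 CPM, the gene whose log2 CPM followed the summed globin and Alas2 level most closely was the row named Beta-s, with a Pearson correlation of 0.979 over the 9 libraries and 0.918 over 8 without APP/PS1 replicate 3. RefSeq (GRCm38.p6) lists Beta-s as a synonym of Hbb-bs, an adult beta-globin gene at chr7:103826534-103828096 on the minus strand in GENCODE M21. C57BL/6 mice are known to carry the adult beta genes Hbb-bs and Hbb-bt, and the names Hbb-b1 and Hbb-b2 belong to the haplotype of other strains. The matrix has no row under the names Hbb-bs and Hbb-bt.

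Beta-s had 1744, 1015 and 1353 CPM in APP/PS1xRIPK1KD, 1558, 838 and 4020 CPM in APP/PS1, and 958, 1241 and 1078 CPM in WT. It made up 83.6% to 87.5% of the counts of the 3 adult beta rows in every library, and Hbb-b1 made up 9.84% to 12.7%. Hbb-bs and Hbb-bt differ at 1 of 441 coding bases, and 65.8% of the windows of 50 bases in Hbb-bs occur in Hbb-bt. The sequences behind Hbb-b1 and Hbb-b2 were not compared. The split of reads between the 3 rows, and with it the level of Hbb-b2, is therefore uncertain. With Beta-s included, the ratio of alpha to adult beta CPM was between 0.907 (APP/PS1 replicate 1) and 1.33 (APP/PS1xRIPK1KD replicate 3), with a median of 1.09. Per kilobase of transcript, Beta-s averaged 2443 CPM and ranked 8 of 11947, close to Hba-a1 at rank 6. The sum of the 9 rows was 0.117% to 0.599% of all counts, and with Beta-s it was 0.202% to 0.985%. These shares also depend on the row Rn45s, whose part of all counts differed between libraries. It was 20.2% to 26.4% in APP/PS1xRIPK1KD, 15.8% to 28.6% in APP/PS1 and 29.6% to 33.8% in WT.

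**Figure D2:**
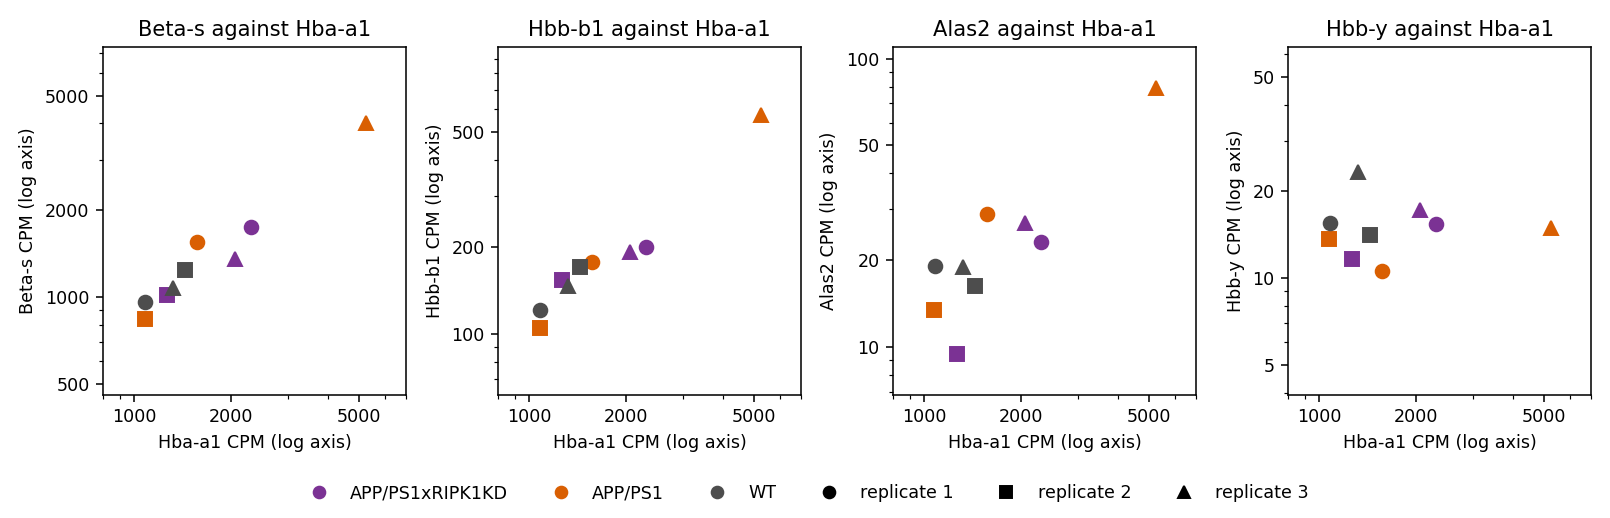
Each panel plots the CPM of 1 row against that of Hba-a1 in the 9 libraries, both on log axes, with colours for genotype and shapes for replicate number. Beta-s (Pearson correlation 0.973 on log2 CPM) and Hbb-b1 (0.974) follow Hba-a1 over its whole range, Alas2 (0.881) more loosely, and Hbb-y (0.063) not.

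Alas2 had 23.1, 9.47 and 27.0 CPM in APP/PS1xRIPK1KD, 29.0, 13.4 and 78.9 CPM in APP/PS1, and 19.1, 16.3 and 18.9 CPM in WT. The third APP/PS1 library stood 4.15 times above the median of the other 8, and the genotypes overlapped. Its correlation with Hba-a1 was 0.881 over the 9 libraries and 0.618 without that library. Per kilobase of transcript Alas2 averaged 12.8 CPM and ranked 3797 of 11947, far below both adult alpha rows on the same scale.

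Hbb-y encodes an embryonic beta-like chain that the mouse yolk sac makes. Hbb-y had 15.4, 11.7 and 17.3 CPM in APP/PS1xRIPK1KD, 10.6, 13.7 and 14.96 CPM in APP/PS1, and 15.5, 14.1 and 23.5 CPM in WT. Its highest library was WT replicate 3, and APP/PS1 replicate 3 stood at 1.01 times the median of the other 8 libraries. The ratio of the adult globin rows to Hbb-y therefore ranged from 66.4 to 411 between libraries. The Hbb-y coding sequence is 74.4% identical to that of Hbb-bs, and the transcripts share 0 windows of 50 bases, so reads of that length cannot match both exactly. The other embryonic members, Hba-x (a zeta-like chain) and Hbb-bh1, and the beta-like Hbb-bh2 were not detected at the limits given above.

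The promoters of the alpha pair, Hbb-bs, Hbb-y and Alas2 are shown because the adult rows and Alas2 were highest in the same library and Hbb-y was not. Each sequence is the 120 bases before the gene start in RefSeq (GRCm38.p6), read along the strand of the gene, and lies at chr11:32283552-32283671 for Hba-a1 and chr11:32296372-32296491 for Hba-a2 (plus strand), chr7:103827929-103828048 for Hbb-bs and chr7:103853208-103853327 for Hbb-y (minus strand), and chrX:150547297-150547416 for Alas2 (plus strand). Capitals mark CACCC (a box bound by Krüppel-like factors), CCAAT, the GATA motif (GATAA or, in its place, GATAG, with A or T before it), each on either strand, and TATAA or CATAAA on the strand of the gene only. Adjoining matches run together.
Hba-a1: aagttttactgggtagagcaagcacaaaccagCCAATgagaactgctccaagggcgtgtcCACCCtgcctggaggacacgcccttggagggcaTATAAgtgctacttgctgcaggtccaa
Hba-a2: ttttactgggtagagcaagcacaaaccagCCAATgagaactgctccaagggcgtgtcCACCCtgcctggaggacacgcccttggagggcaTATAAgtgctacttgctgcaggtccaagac
Hbb-bs: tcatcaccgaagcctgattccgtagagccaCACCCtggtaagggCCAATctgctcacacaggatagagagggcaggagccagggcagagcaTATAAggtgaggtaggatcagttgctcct
Hbb-y: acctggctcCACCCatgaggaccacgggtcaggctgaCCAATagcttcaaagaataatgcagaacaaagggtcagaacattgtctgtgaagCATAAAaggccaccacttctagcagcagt
Alas2: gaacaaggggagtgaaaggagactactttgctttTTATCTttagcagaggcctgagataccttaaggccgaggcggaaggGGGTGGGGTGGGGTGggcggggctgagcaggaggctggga
The windows of Hba-a1 and Hba-a2 share an unbroken run of 117 of 120 bases. The 4 globin windows each hold 1 CACCC, 1 CCAAT and 1 TATAA or CATAAA, and none of them holds the GATA motif in these 120 bases. The Alas2 window holds 1 GATA motif, 3 CACCC on the opposite strand, and neither CCAAT nor TATAA. Of 32851 promoters in the RefSeq table, 31.7% hold CACCC, 21.3% CCAAT, 12.8% the GATA motif and 11.0% TATAA or CATAAA in the same 120 bases. Within 250 bases before the start, Hba-a1, Hba-a2, Hbb-bs, Hbb-y and Alas2 each hold 1 GATA motif, and 26.5% of the promoters hold it. Hbb-bt, whose window is not shown, holds 2 CACCC, 3 CCAAT and 1 TATAA. A match is a description of letters, and the start sites differ between annotations. GENCODE M21 begins Hba-a1 and Hbb-bs upstream of the windows shown, and Hba-a2, Hbb-y and Alas2 within theirs.

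The first comparison set APP/PS1 against WT. Of the 6 tested rows 0 were called at an FDR of 0.05 by the edgeR quasi-likelihood test, against 3 of 13317 genes in all (0.0225%), 0 rows had an unadjusted p under 0.05 (6.14% of all tested genes), and DESeq2 also called 0. Group means were higher in APP/PS1 for the adult rows and Alas2, and all of these fold changes were smaller without APP/PS1 replicate 3. All of them were larger without APP/PS1 replicate 2, with log2 values of 1.41 for Hba-a1 and 1.57 for Alas2. In that fit 5 of the 6 rows had an unadjusted edgeR p under 0.05 (652 of 13780 genes in all), and 0 were called. Hba-a1 averaged 2632 ± 2281 CPM in APP/PS1 and 1277 ± 180.2 CPM in WT (SD, n = 3 each), a log2 fold change of 1.04 ± 0.56 (SE, edgeR FDR 0.829). Without APP/PS1 replicate 3 that log2 fold change was 0.05, and within replicates 1 and 2 of every genotype it was 0.07.

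In the same comparison Alas2 averaged 40.5 ± 34.2 CPM in APP/PS1 and 18.1 ± 1.56 CPM in WT, with a log2 fold change of 1.16 ± 0.57 (SE, edgeR FDR 0.829) that was 0.22 without APP/PS1 replicate 3 and 0.25 within replicates 1 and 2. Beta-s gave 0.97 ± 0.50 (FDR 0.829), Hbb-b1 0.97 ± 0.54 (FDR 0.834) and Hbb-b2 1.35 ± 0.65 (FDR 0.829) on the log2 scale. Without that library Hbb-b1 was at -0.05 and Hbb-b2 at 0.48, and within replicates 1 and 2 they were at -0.05 and 0.81. Hba-a2 was at 0.46 ± 0.50 (FDR 0.931) with all libraries, at -0.45 without APP/PS1 replicate 3 and at -0.64 within replicates 1 and 2, so its sign also turned on 1 library. Hbb-y was the only tested row with a negative value from all libraries, at -0.43 ± 0.27 (FDR 0.861), and was at -0.28 within replicates 1 and 2. Over all 13317 genes the median log2 fold change was 0.00.

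The authors' deposited table of APP/PS1 against WT, which covers 12460 genes and calls 26 at that FDR, gives log2 fold changes of 1.03 for Hba-a1, 0.95 for Hba-a2, 1.19 for Alas2 and -0.42 for Hbb-y. It lists the adult beta genes as Hbb-bs (0.99) and Hbb-bt (1.11) and holds no row named Hbb-b1, Hbb-b2 or Beta-s. None of these 6 rows is called in the authors' deposited table, where their FDR is 0.585 to 0.916. Its unadjusted p, given with a likelihood ratio score, was 0.0167 to 0.0316 for all of them but Hbb-y (0.141). By that p the rows other than Hbb-y ranked 355 to 558 of 12460 genes. The edgeR quasi-likelihood test above had 0 rows under 0.05. In the authors' deposited table the average abundance of Hba-a1 corresponds to 275 CPM and that of Hbb-bs to 936 CPM, whereas the matrix gave 9-library means of 1928 CPM for Hba-a1 and 1534 CPM for Beta-s. The libraries and the annotation behind that table are not stated.

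**Figure D3:**
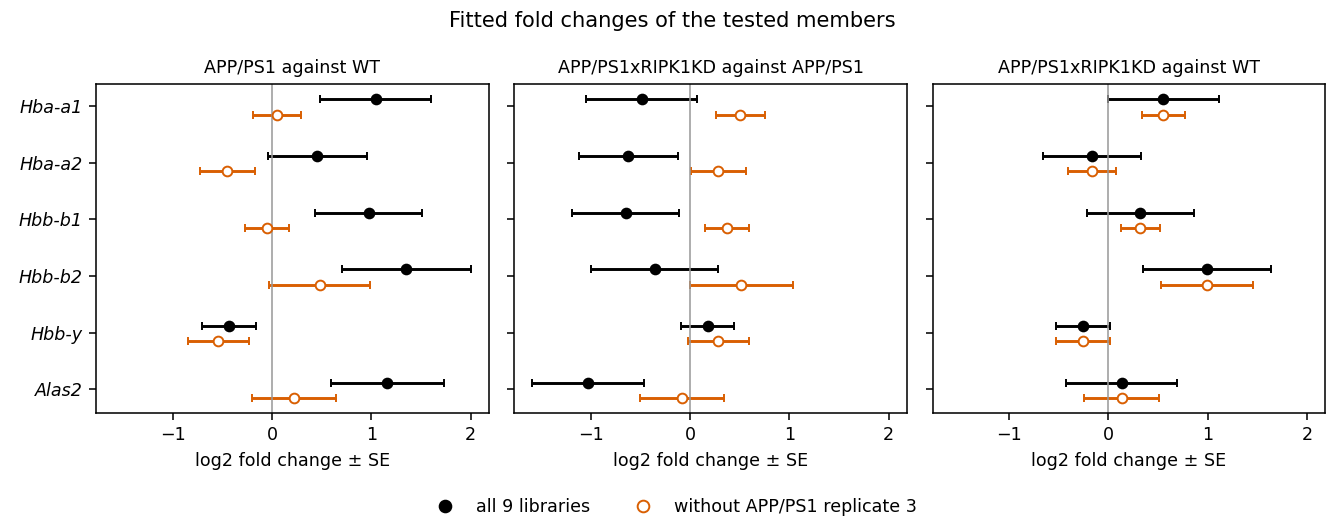
Fitted log2 fold changes ± SE (horizontal axis) of the 6 tested rows in the 3 comparisons, with all 9 libraries (filled) and without APP/PS1 replicate 3 (open). In the comparisons that use APP/PS1, Hba-a1 lies at 1.04 and -0.49 with all libraries, against 0.05 and 0.51 without that library. Its SE bars are shorter without that library, and those of Hbb-y are longer.

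The second comparison, APP/PS1xRIPK1KD against APP/PS1, asked whether levels differed with the Ripk1 alteration added to APP/PS1, and it shares the APP/PS1 libraries with the first. Of the 6 tested rows 0 were called (1 gene of 13317 in all, 0.00751%), 0 had an unadjusted p under 0.05 (4.78% of all tested genes), and DESeq2 called 0. Hba-a1 averaged 1876 ± 541 CPM in APP/PS1xRIPK1KD and 2632 ± 2281 CPM in APP/PS1 (SD, n = 3 each), a log2 fold change of -0.49 ± 0.56 (SE, edgeR FDR 1). Without APP/PS1 replicate 3 the value was 0.51 ± 0.24 (FDR 0.679), and within replicates 1 and 2 it was 0.43, so the sign turned. The same turn of sign was seen for Hba-a2 (-0.62 with all libraries and 0.28 without that library), Hbb-b1 (-0.65 and 0.37) and Hbb-b2 (-0.36 and 0.51). Within replicates 1 and 2 these rows were at 0.24, 0.33 and 0.66. Alas2 averaged 19.9 ± 9.21 CPM in APP/PS1xRIPK1KD and 40.5 ± 34.2 CPM in APP/PS1, and its log2 fold change of -1.03 ± 0.56 (FDR 1) was -0.08 without that library and -0.37 within replicates 1 and 2. Beta-s was at -0.64 ± 0.50 (FDR 1), and Hbb-y at 0.17 ± 0.27 (FDR 1), or 0.16 within replicates 1 and 2. Without APP/PS1 replicate 2, Hba-a1 was at -0.85 and Alas2 at -1.43. In that fit 3 of the 6 rows had an unadjusted edgeR p under 0.05 (647 of 13780 genes in all), and 0 were called.

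The third comparison set APP/PS1xRIPK1KD against WT and shares its APP/PS1xRIPK1KD libraries with the second and its WT libraries with the first. The APP/PS1 libraries enter it through the filter, the scaling and the estimate of the spread. Again 0 of the 6 rows were called (5 of 13317 genes in all, 0.0375%), 0 had an unadjusted p under 0.05 (6.18% of all tested genes), and DESeq2 called 0. Hbb-b2 averaged 63.0 ± 28.0 CPM in APP/PS1xRIPK1KD and 31.6 ± 14.1 CPM in WT (SD, n = 3 each), and was the only tested row whose libraries did not overlap, which 6.04% of all tested genes also showed in that direction. Its log2 fold change was 0.99 ± 0.64 (SE, edgeR FDR 0.91), 0.58 without APP/PS1xRIPK1KD replicate 1 and 1.47 within replicates 1 and 2. Hba-a1 was at 0.55 ± 0.56 (FDR 0.982), and with APP/PS1 replicate 3 left out of the fit at 0.55 ± 0.22 (edgeR FDR 0.737). In that fit Hba-a1 alone of the 6 rows had an unadjusted edgeR p under 0.05 (894 of 13760 genes in all). Within replicates 1 and 2, Hbb-b2 alone did (863 of 13400 genes in all), and 0 rows were called in either fit. With all libraries Beta-s was at 0.33 ± 0.50 (FDR 0.995). Hbb-b1 was at 0.32 (FDR 0.996), Alas2 at 0.13 (FDR 0.999), Hba-a2 at -0.17 (FDR 0.999) and Hbb-y at -0.26 (FDR 0.982). Within replicates 1 and 2, Hba-a1 was at 0.50, Hbb-b1 at 0.28, Alas2 at -0.12, Hba-a2 at -0.40 and Hbb-y at -0.13.

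With the alpha pair summed to 1 row and Beta-s, Hbb-b1 and Hbb-b2 summed to another, which removes the split of reads between copies, the result was the same. The alpha sum gave log2 fold changes of 1.02 ± 0.56 in APP/PS1 against WT, -0.49 ± 0.55 in APP/PS1xRIPK1KD against APP/PS1 and 0.53 ± 0.55 in APP/PS1xRIPK1KD against WT. The beta sum gave 0.98 ± 0.51, -0.63 ± 0.51 and 0.35 ± 0.51, and neither sum was called in any comparison (edgeR FDR 0.829 or higher).

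Replicate 3 of APP/PS1 was set against the other 8 libraries gene by gene, as a description. It stood above the median of the other 8 by 3.81 times for Hba-a1, 3.54 for Hbb-b1, 3.47 for Beta-s, 3.45 for Hbb-b2 and 2.91 for Hba-a2. Among red-cell genes outside the globins, Bpgm, the enzyme that makes the haemoglobin effector bisphosphoglycerate, was chosen after its values were seen and had 52.4 CPM there against 14.6 to 28.3 CPM in the other libraries. Other genes that reticulocytes are known to express lay within the range of the other 8 libraries, among them the transferrin receptor Tfrc (240.0 CPM against 136.9 to 392 CPM), the mitophagy receptor Bnip3l (310 against 267 to 343 CPM) and the haem enzyme Fech (41.1 against 31.0 to 47.7 CPM). The summed level of 6 oligodendrocyte markers was also highest in that library, at 82.5 CPM against 26.1 to 48.7 CPM, and that of 7 astrocyte markers was above the 2.68 to 11.1 CPM of the other 8. Their part in the globin level was not tested.

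**Figure D4:**
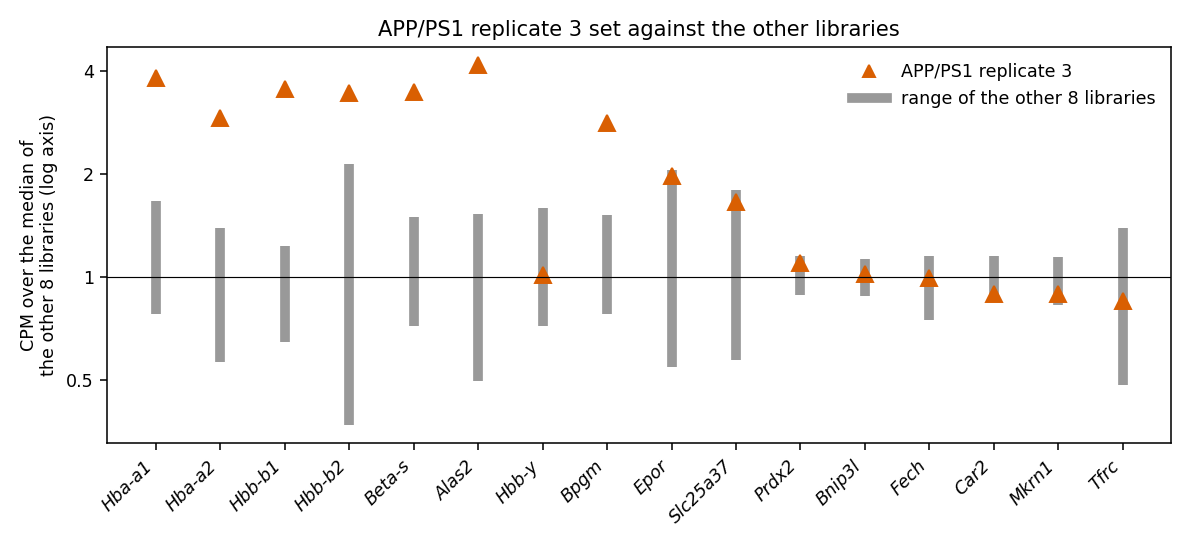
CPM in APP/PS1 replicate 3 divided by the median of the other 8 libraries (log axis), with the range of those 8 as grey bars. The adult globin rows, Beta-s, Alas2 and Bpgm lie above the grey range, and Hbb-y, Tfrc, Fech, Bnip3l and Car2 lie within it.

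Of the transcripts that mark red cells and their precursors, some are described here, chosen after their values were seen. Gata1, the master transcription factor of the erythroid lineage, had 0 counts in all 9 libraries. Slc4a1 (the band 3 anion exchanger) was at 0 in 6 libraries and reached 1.26 CPM in APP/PS1xRIPK1KD replicate 3, which also held the highest Klf1 (1.44 CPM), an erythroid transcription factor. In APP/PS1 replicate 3, where the globin rows were highest, the membrane protein Slc4a1 and Klf1 each had 3 counts. Sptb, Kel and Car1 had 0 counts there. Other red-cell genes were highest in that library, at low levels. These were Ank1 (42 counts, 0.835 CPM), Trim58 (7 counts, 0.139 CPM) and Rhd (2 counts, 0.0397 CPM). Their part in the globin level was not tested.

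The lists of red-cell and haem genes held no called gene in any comparison by the edgeR test. Of the 14 genes of haem synthesis other than Alas2, 6 had a log2 fold change above 0 in APP/PS1 against WT, with a median of -0.09, 10 in APP/PS1xRIPK1KD against APP/PS1 (0.14), and 9 in APP/PS1xRIPK1KD against WT (0.11). Their most abundant members were Alas1, the housekeeping form of the enzyme (617 ± 164 CPM in APP/PS1xRIPK1KD, 676 ± 74.1 CPM in APP/PS1 and 571 ± 62.7 CPM in WT), then Alad and Fech. Unlike Alas2, Alas1 had 593 CPM in APP/PS1 replicate 3, within the range of 491 to 803 CPM over the 9 libraries. In the list of haem and haemoglobin handling the most abundant genes were Nos3 (endothelial nitric oxide synthase), Cyb5r3 (methaemoglobin reductase) and Cyb5a, and 12 of 15 were tested, with medians between -0.03 and 0.03 in the 3 comparisons.

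Of 13 erythroid transcription factors 8 were tested, led by Lmo2, Zbtb7a and Lyl1, with medians of 0.16 in APP/PS1 against WT, 0.15 in APP/PS1xRIPK1KD against APP/PS1 and -0.06 in APP/PS1xRIPK1KD against WT. Endothelial cells are known to express Lmo2, Tal1 and Lyl1 as well, and the summed level of that list was 222 to 316 CPM in APP/PS1xRIPK1KD, 215 to 272 CPM in APP/PS1 and 212 to 247 CPM in WT. Of 21 genes of the red-cell membrane and its cytoskeleton 9 were tested, led by Epb41, Dmtn and Aqp1, with medians of 0.15, -0.25 and -0.05 in the same order of comparisons. The summed level of that list was highest in APP/PS1 replicate 3, at 125.6 CPM against 85.9 to 104.2 CPM in the other 8 libraries, as were Epb41 (71.2 against 45.1 to 57.2 CPM) and Dmtn (32.98 against 12.8 to 29.1 CPM), and their part in the globin level was not tested. Of 15 reticulocyte and red-cell enzymes 12 were tested, led by Bnip3l, Tfrc and Prdx2, with medians of -0.06, 0.05 and -0.03. Of the other globins, myoglobin (Mb) was at 0 in all 9 libraries, and neuroglobin (Ngb) and cytoglobin (Cygb) averaged 0.423 and 0.773 CPM.

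The markers of mural cells, which a sort on CD31 should leave out, and of choroid plexus differed in summed level over the genotypes that the globin rows were compared over. The sum of 16 mural markers was 71.8 to 268 CPM in APP/PS1xRIPK1KD, 192 to 248.5 CPM in APP/PS1 and 14.5 to 61.1 CPM in WT, and edgeR called 2 of the 16 higher in APP/PS1 against WT, 0 in APP/PS1xRIPK1KD against APP/PS1 and 1 higher in APP/PS1xRIPK1KD against WT. The sum of 5 choroid plexus markers was 172 to 306 CPM in APP/PS1xRIPK1KD, 53.1 to 143.7 CPM in APP/PS1 and 41.5 to 68.3 CPM in WT, with 0 of the 5 called in any comparison. The part of either list in the globin levels was not tested. The markers of platelets, blood cell fragments that carry CD31, summed to 7.43 to 15.4 CPM in APP/PS1xRIPK1KD, 5.96 to 9.86 CPM in APP/PS1 and 11.6 to 20.8 CPM in WT, and APP/PS1 replicate 3, at 9.86 CPM, lay within the range of the other libraries.

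After Beta-s, the 9 genes whose pattern over the libraries was most like the summed globin and Alas2 level were Dcp1b, Tmem57, Aplp1, Tubb4b, Hspb1, Lrrfip1, Tasp1, Abhd14a and Mmaa. Their Pearson correlations over 9 libraries were between 0.863 and 0.958. Dcp1b, a subunit of the mRNA decapping complex, had a correlation of 0.958 and varied only between 14.1 and 21.5 CPM. Tmem57 (correlation 0.904) ranged from 11.7 to 28.2 CPM, and the small heat shock protein Hspb1 (0.883) from 721 to 1452 CPM. Leaving out APP/PS1 replicate 3 lowered the correlation to 0.585 for Aplp1 and 0.613 for Tasp1, while Dcp1b (0.916) and Tmem57 (0.904) changed little. Without both libraries farthest from the median, APP/PS1 replicate 3 and APP/PS1xRIPK1KD replicate 1, Beta-s was at 0.864 and Tasp1 at 0.381.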

How the data were processed

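Poly(A)-primed Smart-seq2 libraries without strand information or molecular identifiers were sequenced on a NextSeq500, per the labels' protocols. The authors deposited expected counts per gene symbol, and the submitters' processing notes name Bowtie 0.12.2, RSEM, edgeR 3.10.2 and mm10 (GRCm38). They name no annotation. The authors' deposited comparison holds log2 fold changes and log2 CPM, a likelihood ratio score, and a p-value with its FDR, per the file headers.

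Expected counts were rounded. Rows were kept by filterByExpr (minimum count 10, minimum total 15), scaled by TMM, and fitted in 1 robust edgeR 4.0.16 quasi-likelihood model with 1 coefficient per genotype (R 4.3.3). The 3 contrasts were tested 2-sided with Benjamini-Hochberg adjustment over 13317 genes. CPM is the count over the TMM-scaled library size. Per-length values use the longest GENCODE M21 transcript of a symbol. DESeq2 1.42.0 and other alternatives are compared in the closing section.

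The rows and 17 gene lists (179 genes matched by symbol, 6 by an older symbol, 1 unmatched) were chosen with earlier results of these data known. All globin rows and Alas2 were named, with the 3 most abundant genes of each red-cell list, list genes past the FDR threshold, marker genes beside a result, and the 10 genes with the highest Pearson correlation of log2 CPM (prior count 2) with the summed level. Other genes were named after their values were seen, including Slc4a1, Klf1, Gata1, Ank1, Trim58, Rhd, Sptb, Kel and Car1. Some genes that these rules select are not reported here. Apart from those of the authors' deposited table, the p-values measure the spread between these 9 libraries.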

Additional observations from a re-analysis of the deposited data

How the results depend on the processing

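The number of called globin rows and Alas2 was 0 in each of the 3 comparisons with RLE scaling, no filter on low counts, Rn45s left out, paralog rows summed, DESeq2, replicates 1 and 2 only, Beta-s counted in (chosen after seeing the data), the replicate block and each library left out. Over all tested genes, same-numbered libraries correlated at -0.02 to 0.10 between genotypes once genotype means were subtracted. Differently numbered pairs were not computed beside them, and Xist and the Y-linked transcripts did go with replicate number. These correlations therefore do not decide whether the block is needed, and it is given as an alternative. With the block 2, 0 and 0 genes were called in all, against 3, 1 and 5 without it. The order is APP/PS1 against WT, APP/PS1xRIPK1KD against APP/PS1 and APP/PS1xRIPK1KD against WT. The calls over all genes were 45, 20 and 63 with DESeq2. Without the filter they were 7 in the first comparison and 14 in the last, with paralogs summed 8 in the last, and within replicates 1 and 2 they were 0 in the middle one and 8 in the last. Leaving out 1 library gave 1 to 5, 0 to 4 and 2 to 9.

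Under other alternatives 8 fold changes reversed sign and 106 did not, and with 1 library left out 8 reversed and 154 did not. In APP/PS1 against WT, replicates 1 and 2 only gave -0.64 for Hba-a2 and -0.048 for Hbb-b1 (log2), and leaving out 1 library gave -0.45 to 0.85 and -0.050 to 1.36. In APP/PS1xRIPK1KD against APP/PS1, replicates 1 and 2 only gave 0.43 for Hba-a1, 0.24 for Hba-a2, 0.33 for Hbb-b1 and 0.66 for Hbb-b2, and leaving out 1 library gave -0.85 to 0.51, -1.001 to 0.28, -1.03 to 0.37 and -0.77 to 0.51. In APP/PS1xRIPK1KD against WT, Alas2 was at -0.12 within replicates 1 and 2, -0.064 with the replicate block and -0.14 to 0.48 with 1 library left out, and Hba-a2 at -0.36 to 0.039. Apart from leaving out APP/PS1 replicate 3, the cause was not tested. The summed level was 2212, 3139 and 1554 CPM in APP/PS1xRIPK1KD, APP/PS1 and WT, and 3021, 4268 and 2121 CPM without Rn45s. With 3 libraries a genotype and 1 of them apart, standard errors of 0.49 to 0.65 (log2) for the adult rows and Alas2 limit what was detectable.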
